A study of Mus musculus with 12 samples.

Results

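The genes described here are 8 that encode proteins of DNA double-strand break repair, namely Mre11a, Rad50, Nbn, Atm, Brca1, Brca2, Palb2 and Blm. They were chosen by name, with earlier results of these libraries known, and each was found by its Ensembl identifier, 8 of the 47069 genes in the count table and 8 of the 15925 that passed a filter on low counts. The RNA came from B16 F1 tumors, a pigmented mouse melanoma line, grown in the brains of C57BL/6 mice after implantation of 100000 cells and isolated at day 9. There were 4 groups of 3 libraries. Mice that carried an intracranial and an extracranial tumor (both-tumor mice below) received anti-PD-1 plus anti-CTLA-4, called therapy, or IgG, and mice that carried an intracranial tumor alone (intracranial-only mice) received therapy or IgG. All 12 tumors thus share the cell line, the strain, the site and the day. Library totals ran from 18427495 to 22294182 reads. The series text describes the replicates of a group as biological, and they are numbered here in accession order.

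A double-strand break is first bound by the MRN complex, in which MRE11 is a nuclease, RAD50 holds the DNA ends and NBN recruits the kinase ATM, which then signals the break. In homologous recombination, BRCA1 acts early on resected ends, and PALB2 links it to BRCA2, which acts on single-stranded DNA. BLM is a RecQ helicase that, with TOP3A and RMI proteins, separates recombination intermediates. Recombination uses the sister chromatid as its template and is most active in S and G2 phase, and the transcripts of many of its genes are higher in dividing cells.

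On GRCm38, Mre11a (ENSMUSG00000031928) lies on chromosome 9 from 14784654 to 14837123 on the plus strand, and Atm (ENSMUSG00000034218) on the same chromosome from 53439149 to 53536740 on the minus strand. Rad50 (ENSMUSG00000020380) lies on chromosome 11 from 53649519 to 53707319 and Brca1 (ENSMUSG00000017146) from 101488764 to 101551955, both on the minus strand. On chromosome 7, Palb2 (ENSMUSG00000044702) runs from 122107262 to 122132985 and Blm (ENSMUSG00000030528) from 80454733 to 80535119, both on the minus strand. Nbn (ENSMUSG00000028224) lies on chromosome 4 from 15957925 to 15992589 and Brca2 (ENSMUSG00000041147) on chromosome 5 from 150522630 to 150570329, both on the plus strand.

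Promoter windows of RefSeq (GRCm38.p6), from 250 bases before to 50 after the start of a gene, were searched for motifs of cell cycle genes and of pigment genes. Of the 8 genes, 6 had a window there, and Rad50 and Nbn are named only. Shown 5′ to 3′ are Brca1, which ran against the other genes, Brca2 and Blm, which had the largest falls, and the proliferation gene Mki67, to which they are set below. The windows are chr11:101551906-101552205 on the minus strand for Brca1, chr5:150522371-150522670 on the plus strand for Brca2, chr7:80534949-80535248 on the minus strand for Blm and chr7:135716330-135716629 on the minus strand for Mki67. Capitals mark every motif found on either strand.
Brca1: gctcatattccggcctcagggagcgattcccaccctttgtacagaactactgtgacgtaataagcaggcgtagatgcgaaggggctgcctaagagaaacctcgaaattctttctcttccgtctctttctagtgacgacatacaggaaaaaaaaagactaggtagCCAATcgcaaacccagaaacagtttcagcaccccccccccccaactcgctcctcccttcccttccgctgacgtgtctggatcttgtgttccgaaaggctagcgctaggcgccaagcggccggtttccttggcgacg
Brca2: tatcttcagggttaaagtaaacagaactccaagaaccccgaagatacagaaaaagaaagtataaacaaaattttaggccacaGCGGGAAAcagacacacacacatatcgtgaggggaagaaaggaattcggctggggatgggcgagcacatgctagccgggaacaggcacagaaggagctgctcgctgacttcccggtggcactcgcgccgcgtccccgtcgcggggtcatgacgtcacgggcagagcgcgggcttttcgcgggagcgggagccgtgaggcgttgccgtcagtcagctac
Blm: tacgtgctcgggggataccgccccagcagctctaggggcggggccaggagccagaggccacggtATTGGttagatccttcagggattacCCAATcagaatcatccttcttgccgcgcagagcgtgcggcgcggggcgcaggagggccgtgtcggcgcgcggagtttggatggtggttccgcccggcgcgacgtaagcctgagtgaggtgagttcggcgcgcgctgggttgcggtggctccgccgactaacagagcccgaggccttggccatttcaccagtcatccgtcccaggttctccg
Mki67: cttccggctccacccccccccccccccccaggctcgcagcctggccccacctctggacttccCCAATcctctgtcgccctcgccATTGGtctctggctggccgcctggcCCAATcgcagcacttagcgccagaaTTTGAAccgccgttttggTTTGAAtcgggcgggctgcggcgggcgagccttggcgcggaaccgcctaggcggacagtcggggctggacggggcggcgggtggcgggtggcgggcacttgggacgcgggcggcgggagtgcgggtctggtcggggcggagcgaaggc
The motifs searched on both strands were the E2F site in the forms TTTCCCGC and TTTGGCGC, the CHR element TTTGAA, the CCAAT box, the E-box CACGTG and the M-box TCATGTG; none of these overlapped another in the windows shown. Brca2 held 1 E2F match of the first form, at base -168, where 1.068% of the 32851 RefSeq windows hold one. Mki67 held 2 CHR matches, at -116 and -98, where 17.893% of windows hold one, and 3 CCAAT matches. Blm held 2 CCAAT matches, at -186 and -161, and Brca1 held 1, at -86, where 37.408% of windows hold one. Mre11a held 2 CCAAT matches and Palb2 and Atm 1 each. The second E2F form (0.514% of windows), the E-box (7.15%) and the M-box (3.772%) were not found in these 7 windows. These are matches of letters, not sites shown to be bound.

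CPM are read counts scaled to a common library size with TMM factors, and log2 CPM add a prior count of 2. The mean log2 CPM of 8 melanocyte markers lay between 10.73 and 11.14 in all 12 libraries, so the markers of the labelled tumor were high in each. Genes of brain cells differed much more. The mean log2 CPM of 10 neuron markers was 4.53, 6.36 and 6.09 in the therapy libraries and 4.63, 0.07 and 5.10 in the IgG libraries of both-tumor mice, and 0.57, -0.60 and -0.95 in the therapy libraries and 4.58, 3.51 and 4.93 in the IgG libraries of intracranial-only mice. Replicate 2 of the IgG both-tumor mice stood apart from its own group in these markers, and its sample name carries a suffix unlike that of the other libraries. Calls that include this group are given below also without it.

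The MRN genes had their lowest means in the therapy tumors of both-tumor mice. Mre11a had 32.8, 23.6 and 29.3 CPM in therapy libraries and 52.4, 52.6 and 43.1 CPM in IgG libraries of both-tumor mice, and 61.4, 63.7 and 56.6 CPM in therapy libraries and 53.1, 45.99 and 47.2 CPM in IgG libraries of intracranial-only mice. All 3 therapy libraries of both-tumor mice lay below the other 9, and those of intracranial-only mice with therapy lay above the other 9. In bulk tissue, fewer cells that transcribe a gene and less of its RNA per cell cannot be told apart. Rad50 had 89.9, 70.2 and 74.3 CPM in therapy libraries and 93.3, 95.6 and 92.8 CPM in IgG libraries of both-tumor mice, and 105, 102 and 114 CPM in therapy libraries and 90.4, 84.7 and 87.9 CPM in IgG libraries of intracranial-only mice. Its groups were ordered as those of Mre11a, but within a narrower span, 1.63-fold from the lowest to the highest library against 2.70-fold. Nbn had 30.2, 23.3 and 27.7 CPM in therapy libraries and 37.4, 44.0 and 28.1 CPM in IgG libraries of both-tumor mice, and 44.5, 43.4 and 40.4 CPM in therapy libraries and 40.3, 34.6 and 36.0 CPM in IgG libraries of intracranial-only mice. Here the therapy and IgG libraries of both-tumor mice overlapped, through IgG replicate 3.

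Atm, the kinase activated by MRN, did not follow this order. It had 49.3, 62.6 and 60.9 CPM in therapy libraries and 67.8, 58.4 and 59.3 CPM in IgG libraries of both-tumor mice, and 55.7, 81.1 and 99.9 CPM in therapy libraries and 50.03, 61.3 and 57.2 CPM in IgG libraries of intracranial-only mice. Its groups overlapped in all 4 comparisons, and the therapy group of intracranial-only mice was the most spread (78.9 ± 22.2 CPM, SD, n = 3).

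Brca1 was the only one of the 8 that was highest in the therapy tumors of both-tumor mice. It had 602, 609 and 503 CPM in these therapy libraries and 349, 213 and 420 CPM in the IgG libraries of both-tumor mice, and 412, 145 and 228 CPM in therapy libraries and 207, 299 and 317 CPM in IgG libraries of intracranial-only mice. The 3 therapy libraries of both-tumor mice lay above the other 9, which overlapped across their 3 groups. The genes of its partners had their lowest means in the same group. Palb2 had 4.96, 3.53 and 4.73 CPM in therapy libraries and 5.17, 9.65 and 7.39 CPM in IgG libraries of both-tumor mice, and 8.96, 9.59 and 9.07 CPM in therapy libraries and 7.11, 4.70 and 6.55 CPM in IgG libraries of intracranial-only mice. Therapy libraries of both-tumor mice lay below their IgG libraries, but above replicate 2 of the intracranial-only IgG group in all but replicate 2. Palb2 was the most sparsely read member, with 71 to 197 reads in a library. Brca2 had 19.2, 9.30 and 14.0 CPM in therapy libraries and 26.3, 33.6 and 27.5 CPM in IgG libraries of both-tumor mice, and 29.8, 41.2 and 37.3 CPM in therapy libraries and 30.8, 21.7 and 27.5 CPM in IgG libraries of intracranial-only mice. All therapy libraries of both-tumor mice lay below the other 9.

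Blm spanned the widest range, 5.21-fold from the lowest to the highest library. It had 13.3, 8.01 and 11.6 CPM in therapy libraries and 23.3, 36.9 and 21.3 CPM in IgG libraries of both-tumor mice, and 41.7, 40.1 and 36.8 CPM in therapy libraries and 31.1, 21.3 and 25.7 CPM in IgG libraries of intracranial-only mice. Its lowest 3 libraries were again those of both-tumor mice with therapy. In this group replicate 2 was the lowest library for Mre11a, Rad50, Nbn, Palb2, Brca2 and Blm.

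**Figure D1:**
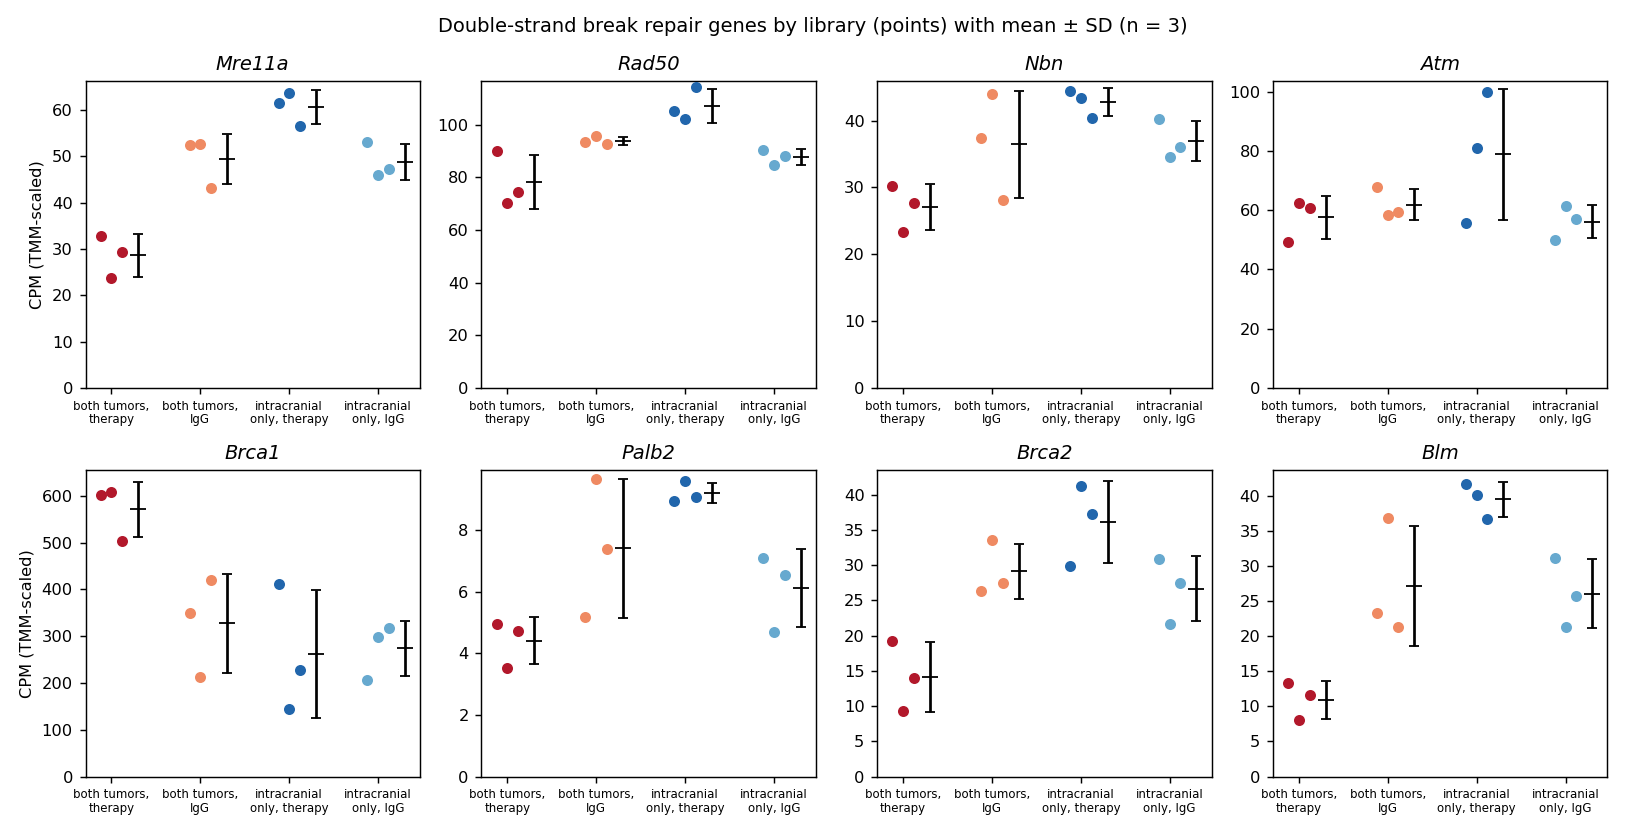
CPM of each of the 8 genes by library (points), with the mean and SD of each group beside them (n = 3); every axis starts at 0. Brca1 is highest in the therapy libraries of both-tumor mice (503 to 609 CPM), where Mre11a, Palb2, Brca2 and Blm have their lowest means.

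In both-tumor mice, therapy was set against IgG, which asks how the antibodies affected the intracranial tumor in the presence of extracranial melanoma. Blm fell by 1.31 ± 0.25 (log2 scale, with the SE of the fit; 3 libraries in each group), averaging 10.95 ± 2.69 CPM with therapy and 27.2 ± 8.49 CPM with IgG (mean ± SD). Brca2 fell by 1.04 ± 0.25, averaging 14.2 ± 4.95 CPM with therapy and 29.1 ± 3.89 CPM with IgG, and Mre11a fell by 0.79 ± 0.13. The quasi-likelihood test of edgeR, with Benjamini-Hochberg adjustment over all genes tested, gave an adjusted p = 0.0498 for each of these 3. So 3 of 8 were lower and 0 higher, where 4.14% and 1.24% of all genes were lower and higher by the same test. The members were chosen with such results known, so these counts describe them and support nothing. Not past the threshold were Palb2 (-0.75 ± 0.27, adjusted p = 0.0901), Rad50 (-0.26 ± 0.10, adjusted p = 0.0969), Nbn (-0.43 ± 0.16, adjusted p = 0.0978), Atm (-0.10 ± 0.19, adjusted p = 0.71) and Brca1 (0.80 ± 0.35, adjusted p = 0.141). Libraries did not overlap for 5 lower genes (20.1% of all genes) and for 1 higher gene, Brca1 (17.9%). The 3 calls sit at the threshold, none was made in 9 of the 12 fits that left out 1 library, and none remained when RLE scaling was used, when the filter was dropped, when just the compared groups were fitted, or without replicate 2 of the IgG group (adjusted p = 0.157 for each of the 3, at -1.03 for Blm, -0.93 for Brca2 and -0.74 for Mre11a). Each of these fits without a member call called 0 of all genes in this comparison.

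In intracranial-only mice, therapy gave no call in any of the 8 genes, as in none of the 15925 (0%) in edgeR's quasi-likelihood test. Fitted values ran from -0.07 ± 0.35 for Brca1 to 0.60 ± 0.24 for Blm (adjusted p = 0.294), with 0.59 ± 0.26 for Palb2, 0.49 ± 0.19 for Atm, 0.44 ± 0.24 for Brca2, 0.31 ± 0.13 for Mre11a, 0.29 ± 0.10 for Rad50 and 0.21 ± 0.16 for Nbn (lowest adjusted p = 0.2). At an unadjusted p under 0.05 there were 5 of the 8, all with higher values under therapy, beside 13.5% of all genes in both directions together. DESeq2 and limma voom called none of the 8. Over all genes the count was 0 in edgeR but 1025 with DESeq2 (30 of them higher) and 1002 without replicate 2 of the both-tumor IgG mice (9 of them higher), with 0 of the 8 members called in either. Therapy libraries lay above all IgG libraries for 5 genes, where 8.78% of all genes did so, and below them for 0 genes (14.4% of all genes).

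Under therapy, tumors of both-tumor mice were set against those of intracranial-only mice, which asks what extracranial melanoma changed in treated mice. This comparison shares its first group with the first one, so these sets of values are not independent. Blm fell by 1.85 ± 0.25 (adjusted p = 0.00455), averaging 10.95 ± 2.69 CPM in both-tumor mice and 39.5 ± 2.52 CPM in intracranial-only mice. Brca2 fell by 1.35 ± 0.25, Mre11a by 1.08 ± 0.13 (both with adjusted p = 0.00455) and Palb2 by 1.06 ± 0.27 (adjusted p = 0.00998). Nbn fell by 0.66 ± 0.16 (adjusted p = 0.00837) and Rad50 by 0.45 ± 0.10 (adjusted p = 0.00553). Brca1 rose by 1.13 ± 0.36 (adjusted p = 0.0254), averaging 572 ± 59.1 CPM in both-tumor mice and 262 ± 137 CPM in intracranial-only mice. Atm was at -0.45 ± 0.19 (adjusted p = 0.0688). So 6 of 8 were lower and 1 higher, beside 21% and 24.4% of all genes. Libraries did not overlap for the same 6 and for Brca1, beside 28.5% of all genes lower and 31.4% higher. The call of Brca1 was lost when therapy replicate 1 or 2 of both-tumor mice, or therapy replicate 2 or 3 of intracranial-only mice, was left out (0.80 to 1.05, adjusted p = 0.0584 to 0.0836). No call of the 7 remained with the neuron score or the mitosis score of each library as a covariate. Either score left 0 calls over all genes, so these fits say nothing particular to the 7.

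Under IgG the same contrast gave no call, in these genes or in any gene (0%). The 8 fitted values lay between -0.02 and 0.27, each with an adjusted p = 1, and none of the 8 had an unadjusted p under 0.05 in edgeR's quasi-likelihood test, nor a call with DESeq2 or limma voom. The libraries were separate for Rad50 alone, whose 92.8 to 95.6 CPM in both-tumor mice lay above 84.7 to 90.4 CPM in intracranial-only mice (1.68% of all genes were separate in this direction and 2.78% in the other).

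The interaction, the therapy effect in both-tumor mice minus that in intracranial-only mice, tests whether the therapy effects differ. It was -1.91 ± 0.34 for Blm, -1.48 ± 0.35 for Brca2, -1.10 ± 0.19 for Mre11a and -0.55 ± 0.14 for Rad50 (edgeR, each adjusted p = 0.0321) and -1.34 ± 0.38 for Palb2 (adjusted p = 0.0355). It did not pass for Nbn (-0.64 ± 0.22, adjusted p = 0.0621), Atm (-0.59 ± 0.26, adjusted p = 0.122) or Brca1 (0.87 ± 0.50, adjusted p = 0.213). In 8 of the 12 fits that left out 1 library, no call was made in these genes or in any gene. The 5 lower calls stand beside 9.93% of all genes called lower and 12.1% called higher. Without replicate 2 of the IgG both-tumor mice 4 of the 5 remained past the threshold, and Palb2 was at -1.10 (adjusted p = 0.0592).

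**Figure D2:**
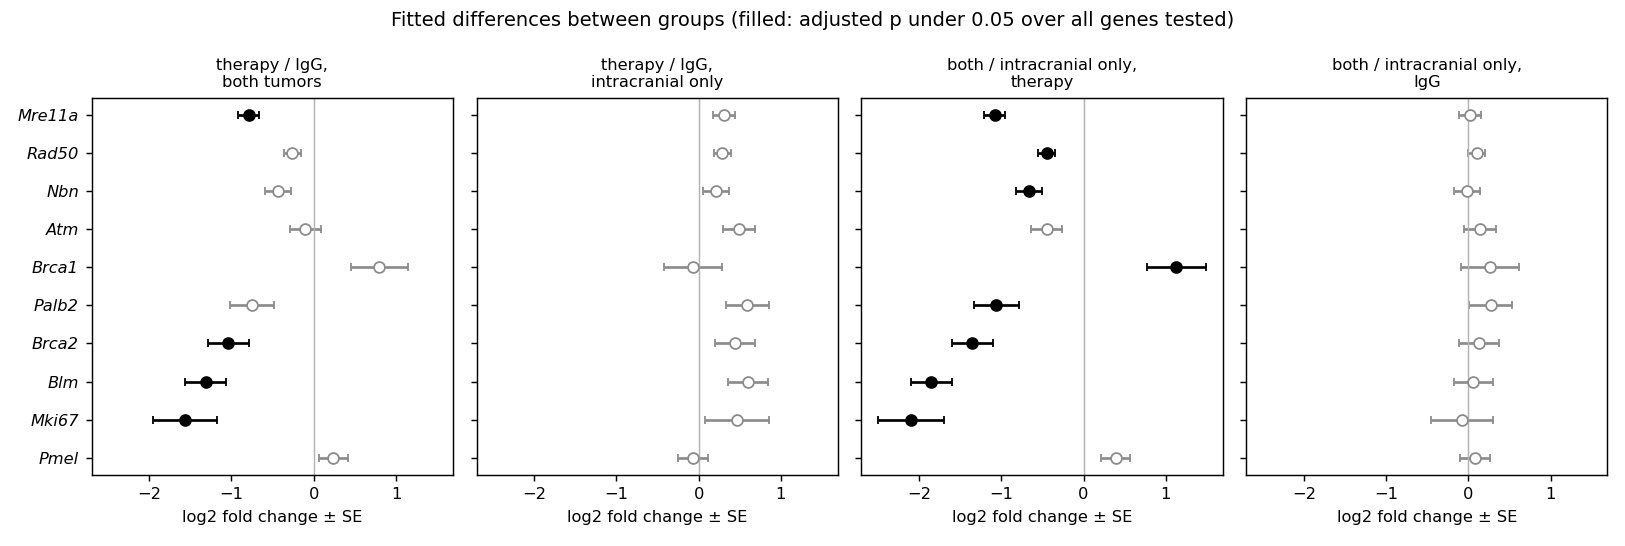
Fitted log2 fold changes (points) with their SE (bars) for the 8 genes, Mki67 and Pmel in 4 comparisons; filled points have an adjusted p under 0.05 over all genes tested. Under therapy, 7 members lie left of 0 (all filled but Atm) and Brca1 right of it in the contrast of both-tumor with intracranial-only mice. All members lie between -0.02 and 0.27 in this contrast under IgG.

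Levels of different genes were compared per length only. In the authors' FPKM (reads per kilobase of gene length, scaled to the library total), Brca1 was the highest of the 8 with a median of 183 over 12 libraries (75.5 to 340), followed by Rad50 at 40.1 (30.9 to 48.2), Atm at 24.02 (19.3 to 38.1), Mre11a at 23.0 (11.3 to 28.7), Nbn at 17.3 (11.1 to 20.3), Blm at 13.0 (4.27 to 21.4), Brca2 at 11.01 (3.69 to 15.5) and Palb2 at 2.82 (1.48 to 3.82). The ranges of neighbours in this order overlap, except those of Brca1 and Rad50. The gene length behind the FPKM of Brca1 is 1843 bases, which equals the mean of its 7 GENCODE M21 transcripts, while its exons cover 8533 bases together and its longest transcript has 6572. With the exon union as length, Brca1 had a median RPKM of 39.5 (16.3 to 73.5), Rad50 17.2, Nbn 14.7, Mre11a 8.28, Atm 5.94, Blm 2.82, Brca2 2.07 and Palb2 0.929. In this order Nbn and Atm change places, and the other 6 keep theirs. Counts per gene do not tell which transcripts of Brca1 were read.

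Each member was also set over Mki67, a marker of dividing cells, in the same library. Mki67 had 124, 35.2 and 81.4 CPM in therapy libraries and 231, 299 and 178 CPM in IgG libraries of both-tumor mice, and 308, 397 and 330 CPM in therapy libraries and 300, 167 and 280 CPM in IgG libraries of intracranial-only mice. It fell by 1.56 ± 0.39 in the first comparison (adjusted p = 0.0498) and by 2.10 ± 0.40 between both-tumor and intracranial-only mice under therapy (adjusted p = 0.00458), more than any member. The first of these calls was made in 3 of the 12 fits that left out 1 library, and without replicate 2 of the IgG group Mki67 was at -1.35 (adjusted p = 0.157). The second was made in all 12. The log2 ratio of member reads to Mki67 reads is a description, with no test.

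Per Mki67 read, no member had a lower mean in therapy than in IgG tumors of both-tumor mice. Mki67 itself was lower in these therapy tumors, so a gene with an unchanged level also has a higher ratio there. How many of all genes had a higher ratio was not counted. The mean log2 ratio of Blm was -2.72 ± 0.55 with therapy and -3.13 ± 0.15 with IgG in both-tumor mice, and -3.12 ± 0.22 with therapy and -3.23 ± 0.24 with IgG in intracranial-only mice (SD, n = 3), and the libraries of these groups overlapped. Over 12 libraries the SD of this ratio was 0.35, against 0.76 for the log2 CPM of Blm, and for Brca2 these were 0.43 and 0.61. For the other 6 members the ratio varied more than the level, from 0.59 against 0.44 for Mre11a to 1.58 against 0.65 for Brca1. Brca2 was at -2.38 ± 0.41 with therapy and -3.00 ± 0.26 with IgG in both-tumor mice, with no overlap, and at -3.26 ± 0.11 with therapy in intracranial-only mice. Therapy minus IgG in both-tumor mice was 0.91 for Mre11a, 1.29 for Nbn, 1.43 for Rad50 and 1.60 for Atm, each with all therapy libraries above all IgG libraries, and 0.99 for Palb2, with overlap. Without replicate 2 of the IgG group these differences were 0.77 for Mre11a, 1.25 for Nbn, 1.26 for Rad50, 1.37 for Atm, 1.02 for Palb2, 0.53 for Brca2 and 0.46 for Blm, and that of Brca1 was 2.09, against 2.56 with it. For Brca1 the ratio was 2.28, 4.12 and 2.63 in therapy libraries and 0.60, -0.49 and 1.24 in IgG libraries of both-tumor mice, and 0.42, -1.45 and -0.54 in therapy libraries and -0.53, 0.84 and 0.18 in IgG libraries of intracranial-only mice. The therapy libraries of both-tumor mice, whose Mki67 was lowest, thus had the most Brca1 reads per Mki67 read. Between both-tumor and intracranial-only mice under therapy, the log2 ratio to Mki67 differed by 3.53 for Brca1, 1.85 for Atm, 1.82 for Rad50, 1.61 for Nbn, 1.2 for Palb2, 1.18 for Mre11a, 0.88 for Brca2 and 0.40 for Blm. With the mean log2 CPM of 14 replication genes in place of Mki67, the same differences were 3.02 for Brca1, 1.34 for Atm, 1.30 for Rad50, 1.10 for Nbn, 0.70 for Palb2, 0.67 for Mre11a, 0.37 for Brca2 and -0.11 for Blm, and the libraries of Atm, Brca2 and Blm overlapped.

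**Figure D3:**
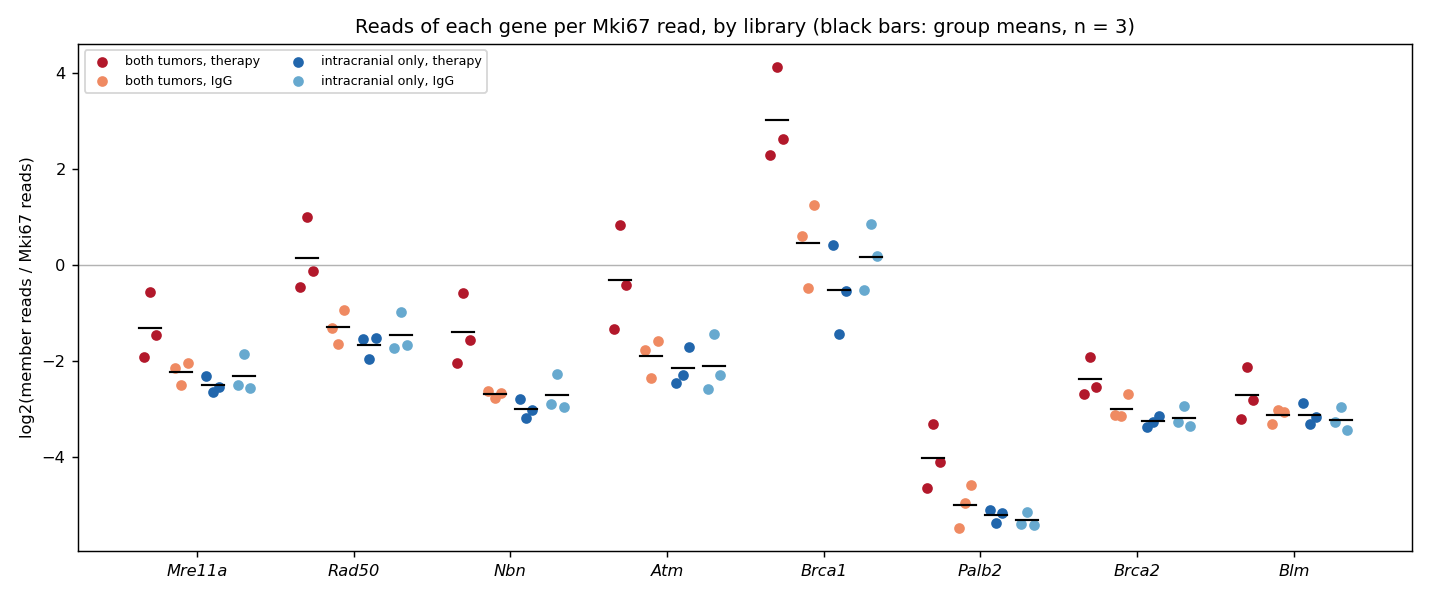
Log2 of the reads of each gene over the Mki67 reads of the same library, by library (points) with group means (bars, n = 3). Blm stays between -3.45 and -2.13 in all groups, while Brca1 is at 2.28 to 4.12 in the therapy libraries of both-tumor mice and at 1.24 or lower in the other 9.

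Variation between replicates was looked at apart from the groups. The 4 groups of 3 hold 12 pairs of replicates, and a pair counts as the same order when the library with more of one gene also has more of the other. With Mki67, the pairs in the same order were 11 of 12 for Mre11a, Brca2 and Palb2, and 10 of 12 for Rad50, Nbn and Blm. They were 3 of 12 for Atm and 2 of 12 for Brca1. With Pmel, a melanosome structure gene, Brca1 was in the same order in 10 of 12 pairs, and the others in 3 to 7. The 3 pairs within a group share libraries, and Brca1 and Pmel were set side by side after their values were seen.

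Pmel had 7850, 7661 and 7303 CPM in therapy libraries and 7318, 5407 and 6598 CPM in IgG libraries of both-tumor mice, and 6959, 4802 and 5704 CPM in therapy libraries and 5090, 6304 and 6937 CPM in IgG libraries of intracranial-only mice. It spanned 1.63-fold over the 12 libraries, where Brca1 spanned 4.21-fold, and it passed no comparison (0.24 ± 0.18 for therapy against IgG with both tumors, adjusted p = 0.336, and 0.39 ± 0.18 for both-tumor against intracranial-only mice under therapy, adjusted p = 0.0954). Brca1 reads per Pmel read still differed, with a mean log2 ratio of -3.74 ± 0.11 with therapy and -4.34 ± 0.35 with IgG in both-tumor mice and -4.59 ± 0.49 with therapy in intracranial-only mice (SD, n = 3). With the melanocyte score as a covariate, Brca1 was at 1.08 (adjusted p = 0.0086) between both-tumor and intracranial-only mice under therapy, against 1.13 without it. That score averaged 10.98 in the both-tumor and 10.91 in the intracranial-only mice with therapy, so this fit had little difference between these groups to remove. Within the intracranial-only therapy group it was 11.12, 10.73 and 10.87. With this covariate Brca1 was at 0.98 for therapy against IgG with both tumors, against 0.80 without it, and at -0.05 against -0.07 with the intracranial tumor only. The extracranial contrast under IgG was 0.04 against 0.26, and the interaction was 1.03 against 0.87, all without a call.

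**Figure D4:**
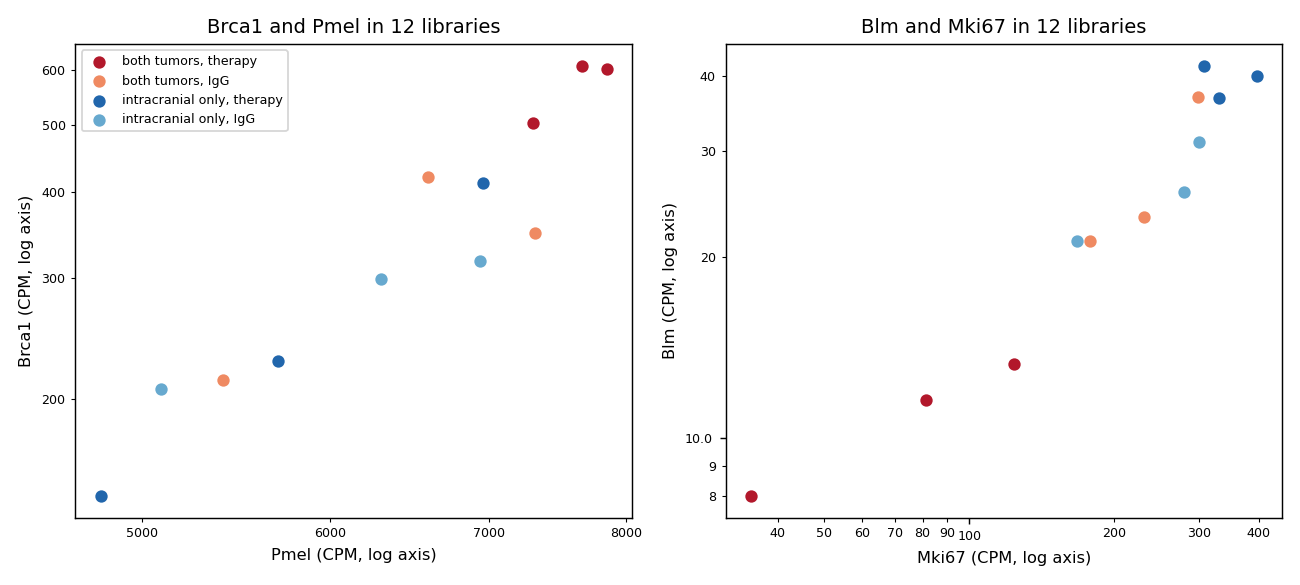
CPM of Brca1 against Pmel (left) and of Blm against Mki67 (right) in the 12 libraries, on log axes, colored by group. Libraries of the other 3 groups mix along the left plot, and the 3 of both-tumor mice with therapy lie at its top (503 CPM of Brca1 or more). These same 3 lie at the lower left of the right plot (13.3 CPM of Blm or less).

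Among 9688 genes with a mean of at least 10 CPM, genes whose log2 CPM most followed the mean of the 8 members over 12 libraries included Ddias, Nup133, Wdr62, Dgcr8 and Vac14, with a Pearson r of 0.988 to 0.982, as a description without a test. Nup133 encodes a nucleoporin. For Brca1 alone, looked up after its values were seen, they were Tmem150a, Lamp1, Fam174b, Sox9, Cpne4 and Pmel, at 0.972 to 0.946. Lamp1 encodes a lysosomal membrane protein and Sox9 a transcription factor. The libraries share their groups, and such values also carry the differences between groups.

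Of the 8 genes, 4 start within 1 kb of a coding gene on the opposite strand. These are Palb2 and Dctn5 (56 bases between starts), Brca1 and Nbr1 (194), Mre11a and Ankrd49 (202) and Atm and Npat (307). Nbr1, which encodes a selective autophagy receptor, rose by 0.25 ± 0.09 between both-tumor and intracranial-only mice under therapy (adjusted p = 0.0432), averaging 187 ± 6.20 CPM in both-tumor mice and 157 ± 9.96 CPM in intracranial-only mice, where Brca1 rose by 1.13. Npat, a factor for histone gene transcription, fell by 0.57 ± 0.09 (adjusted p = 0.00455), averaging 29.0 ± 1.92 CPM in both-tumor mice and 43.0 ± 1.53 CPM in intracranial-only mice, where Atm did not pass. Ankrd49 fell by 0.63 ± 0.15 (adjusted p = 0.00796), and Dctn5, a dynactin subunit, was at 0.09 ± 0.09 (adjusted p = 0.416), where Palb2 fell by 1.06. Mre11a shares 154 exon bases with Ankrd49 on the opposite strand, which had 259 to 505 reads, and whether counting used strand is not given in the sources at hand.

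Partners of these proteins mostly had the sign of Brca2 and Blm, not that of Brca1. Bard1, the obligate partner of BRCA1, fell by 1.47 ± 0.31 between both-tumor and intracranial-only mice under therapy (adjusted p = 0.00532), and Brip1, a helicase bound by BRCA1, fell by 1.5 ± 0.22 (adjusted p = 0.00455). The resection factor Rbbp8 (CtIP) fell by 0.67 ± 0.18 (adjusted p = 0.0142). Of the BLM complex, Top3a fell by 0.41 ± 0.12 (adjusted p = 0.0191) and Rmi2 by 1.16 ± 0.30 (adjusted p = 0.0109), while Rmi1 was at -0.08 ± 0.17 (adjusted p = 0.726). For therapy against IgG in both-tumor mice, Brip1 fell by 1.09 ± 0.22 and Top3a by 0.49 ± 0.12 (both with adjusted p = 0.0498). The others were at -1.08 ± 0.31 for Bard1 (adjusted p = 0.0563), -0.64 ± 0.18 for Rbbp8 (adjusted p = 0.0562), -0.84 ± 0.30 for Rmi2 (adjusted p = 0.0882) and -0.03 ± 0.17 for Rmi1 (adjusted p = 0.906). In intracranial-only mice, therapy gave values of 0.10 to 0.61 in these 6 genes, with no call, and the extracranial tumor under IgG gave -0.02 to 0.26, with no call.

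A wider view came from 88 other repair genes in 8 lists, of which 87 passed the filter. Under therapy, with both-tumor against intracranial-only mice, 54 of 87 were lower and 1 higher, beside 21% and 24.4% of all genes. Their median was -0.69 against 0.03 over all genes tested. Of the homologous recombination genes 14 of 20 fell (median -1.09), among them Rpa1 (-0.84 ± 0.16, adjusted p = 0.00455) and Rpa2 (-1.41 ± 0.27, adjusted p = 0.00458), which coat single-stranded DNA. Of the ATR and checkpoint kinase genes 8 of 10 fell (median -1.02), among them Atr (-1.10 ± 0.14), the mitotic brake Wee1 (-1.68 ± 0.26) and Chek1 (-2.00 ± 0.35, each adjusted p = 0.00455). Of the BLM, RecQ and resolvase genes 7 of 11 fell (median -0.69), with Recql4 at -1.86 ± 0.33 (adjusted p = 0.00455) and the resolvase Gen1 at -1.87 ± 0.40 (adjusted p = 0.00531). In the other lists 7 of 12 Fanconi anemia genes, 6 of 9 genes of MRN and ATM signalling, 8 of 15 end-joining genes, 2 of 5 BRCA1-A genes and 2 of 5 genes of 53BP1, RIF1 and shieldin fell. Among these were the Fanconi protein gene Fancd2 (-1.79 ± 0.35, adjusted p = 0.00467), the chromatin adaptor Mdc1 (-1.26 ± 0.23, adjusted p = 0.00455), the polymerase theta gene Polq (-1.90 ± 0.35, adjusted p = 0.00455), the Ku80 gene Xrcc5 (-0.63 ± 0.11, adjusted p = 0.00455) and Rif1 (-1.07 ± 0.17, adjusted p = 0.00455). The 1 gene that rose was the end-joining factor Paxx (0.80 ± 0.17, adjusted p = 0.00532), named after its value was seen.

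Therapy against IgG in both-tumor mice gave 23 of the 87 lower and 0 higher, beside 4.14% and 1.24% of all genes (median -0.52, all genes 0.02). Among the 23 were Chek1 (-1.68 ± 0.34), Recql4 (-1.51 ± 0.33), Parp1 (-0.88 ± 0.22) and Recql (-0.56 ± 0.10), each at adjusted p = 0.0498 in edgeR. None of these 23 calls, with those of Brip1 and Top3a among them, remained without replicate 2 of the IgG group. That fit called no gene at all in this comparison. In intracranial-only mice 0 of 87 were called by edgeR's quasi-likelihood test, DESeq2 or limma voom (median 0.20). At an unadjusted p under 0.05 in edgeR there were 7, all with higher values under therapy. Over all genes that share was 13.5%, with both directions together. Fitted values were above 0 for 74 of the 87. Therapy libraries lay above all IgG libraries for 27 of the 87 and below them for 3, beside 8.78% and 14.4% of all genes. The extracranial tumor under IgG gave 0 calls by each of these tools and 0 at an unadjusted p under 0.05 (median 0.03). The interaction was lower in 34 of 87, beside 9.93% of all genes (median -0.69, all genes 0.04), and in 23 without replicate 2 of the both-tumor IgG mice.

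The lists of cell cycle genes had lower medians than those of repair genes. Between both-tumor and intracranial-only mice under therapy, all 12 genes of the mitosis list fell (-2.35 to -1.79, median -2.03) and all 14 of the replication list (-1.96 to -1.39, median -1.68). Of 15 targets of p53, which ATM signalling can activate, 7 rose (24.4% of all genes were higher and 21% lower in this comparison), among them Btg2 (1.87 ± 0.37, adjusted p = 0.00476) and Fas (3.34 ± 0.94, adjusted p = 0.0157), and 3 fell, namely Cdkn1a (-1.60 ± 0.38, adjusted p = 0.00796), Mdm2 (-0.43 ± 0.10, adjusted p = 0.00746) and Ccng1 (-0.67 ± 0.15, adjusted p = 0.00656). Cdkn1a encodes the cell cycle inhibitor p21 and Mdm2 the ligase that degrades p53, while Fas encodes a death receptor also found on lymphocytes.

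**Figure D5:**
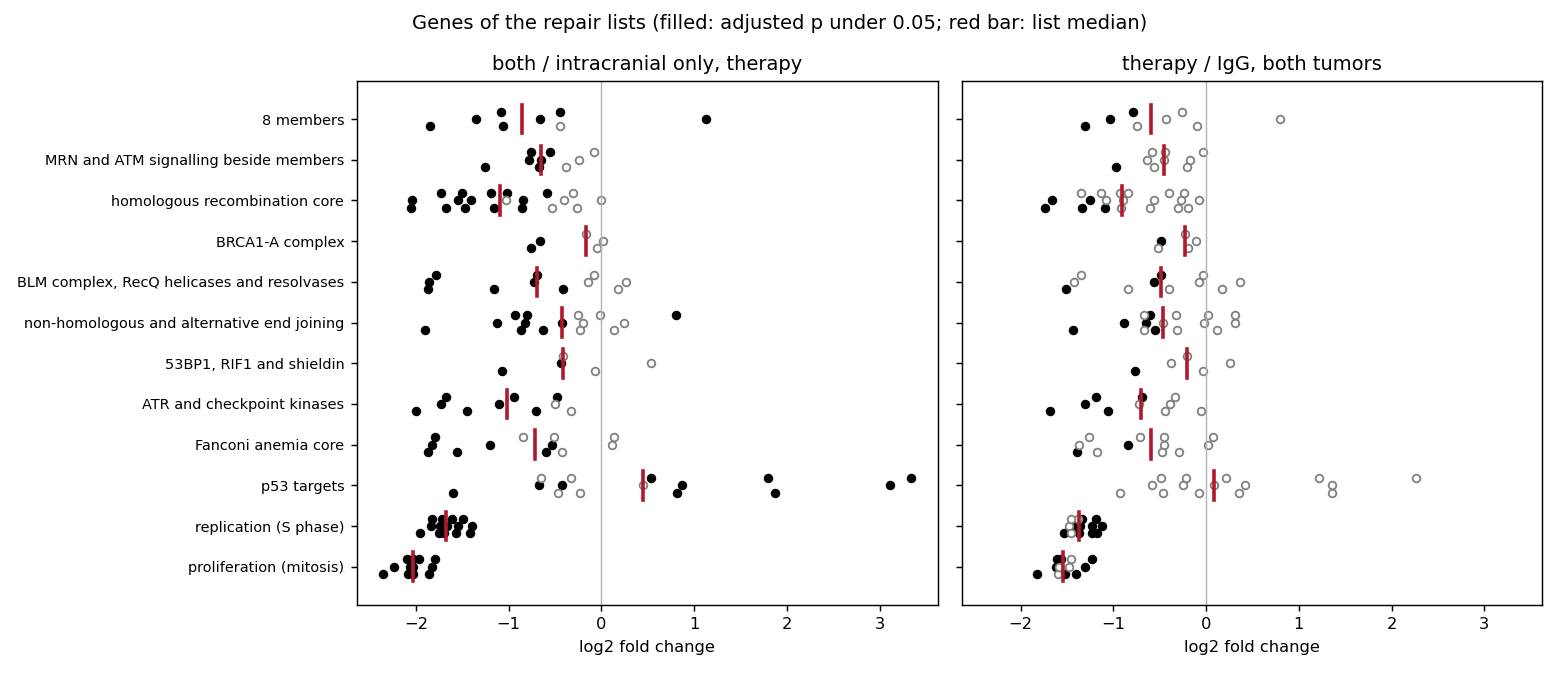
Log2 fold changes of the genes of each list (points, filled at an adjusted p under 0.05) with the list median (red bar), for both-tumor against intracranial-only mice under therapy (left) and therapy against IgG in both-tumor mice (right). The mitosis list (median -2.03 at left) and the replication list (median -1.68) lie furthest left, the medians of the repair lists lie between these and 0, and p53 targets fall on both sides.

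Markers of other cells moved in the same comparisons. Between both-tumor and intracranial-only mice under therapy, 10 of 10 neuron markers rose (median 6.73) and 8 of 8 oligodendrocyte markers rose (median 4.65), and so did 6 of 7 of astrocytes, 6 of 6 of microglia, 4 of 6 of monocytes and macrophages, 7 of 8 of T cells and 3 of 6 of endothelium. Of the 8 melanocyte markers, 0 were called in either direction, with fitted values from -0.23 to 0.39. In this comparison 24.4% of all genes were higher and 21% lower. Therapy and IgG of both-tumor mice differed in 1 of 10 neuron and 2 of 8 oligodendrocyte markers, all higher with therapy, beside 1.24% of all genes higher. Without replicate 2 of the IgG group they differed in 0 of either list and in 0 of all genes. Therapy against IgG in intracranial-only mice gave 0 calls in both lists, but 9 of 10 neuron and 5 of 8 oligodendrocyte markers were lower with therapy once that both-tumor library was left out of the shared fit. Over all genes that fit made 1002 calls in this comparison, 9 of them higher. Summed neuron markers were 466 to 1328 CPM in therapy libraries and 99.9 to 609 CPM in IgG libraries of both-tumor mice, and 96.7 to 98.5 CPM in therapy libraries and 286 to 498 CPM in IgG libraries of intracranial-only mice. Summed T cell markers, of 8 genes, were 49.5 to 105 CPM in therapy libraries and 2.33 to 18.04 CPM in IgG libraries of both-tumor mice, and 2.41 to 13.2 CPM in therapy libraries and 1.24 to 25.3 CPM in IgG libraries of intracranial-only mice. Summed melanocyte markers were 25270 to 29890 CPM in therapy libraries and 25840 to 29420 CPM in IgG libraries of both-tumor mice, and 22570 to 30170 CPM in therapy libraries and 25280 to 29400 CPM in IgG libraries of intracranial-only mice. No marker of these lists was at 0 reads in every library of a group. The part of brain and immune cells in the values of the 8 genes was not tested. The fit with the neuron score called none of them, but it called 0 of all genes in every comparison, so it cannot bear on these 8.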

How the data were processed

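Bulk mRNA of 12 intracranial tumors was sequenced, with a NEBNext Ultra kit per the labels' protocols. The authors deposited raw read counts per Ensembl gene and FPKM values; the submitters' processing notes list TopHat2 2.0.12, Bowtie2 2.2.3, HTSeq 0.6.1, GRCm38 and mm10, without their roles. No annotation release is named there. In 16062 of 16062 genes read in every library, the deposited FPKM equalled the count over 1 length and the library total, within a relative tolerance of 1e-06. Symbols and coordinates come from GENCODE M21 (46488 of 47069 identifiers matched).

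Counts were tested with edgeR 4.0.16 in R 4.3.3 (quasi-likelihood test, TMM factors, filterByExpr with a minimum count of 10 and total of 15, 4 group means over 12 libraries, Benjamini-Hochberg over 15925 genes, threshold 0.05). The common dispersion came to 0.112 (33.5% as a coefficient of variation). SE is the absolute log2 fold change over the square root of F. Replicates correlated at 0.917 to 0.986 (log2 CPM, prior count 2), and chi-square tests between them gave 15.5 to 95.6 per degree of freedom, so none matched within sampling noise. The labels give no batch, and no pairing was used. The script was tested on simulated counts.

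The 8 genes and all lists were chosen with earlier results of these data known. Of the 88 other repair genes, H2ax was matched as H2afx by a synonym; Shld3 is not analysed here. Named genes are all members and Mki67, 6 partners, per other list up to 3 genes with the smallest p past the threshold, and the genes most like the members' mean (of the 6 highest, with unnamed gene models left out); some items that this rule names are not reported here; the Brca1 look-alikes, the opposite-strand neighbours, Pmel, Paxx, Btg2, Fas, Cdkn1a, Mdm2 and Ccng1 were added after values were seen. Alternatives were RLE factors, no filter, DESeq2 1.42.0, limma 3.58.1 (voom, and log2 FPKM with pseudocounts of 1 and 0.1), fits of the compared groups alone, covariates and each library left out.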

Additional observations from a re-analysis of the deposited data

Results flagged for a closer look

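The interaction tests whether the effect of therapy differs between both-tumor mice and intracranial-only mice, and each gene here passed it in edgeR's quasi-likelihood test (adjusted p = 0.0321 to 0.0415), with a lower value in the both-tumor mice. Among the members it was -1.91 for Blm, -1.48 for Brca2, -1.34 for Palb2, -1.10 for Mre11a and -0.55 for Rad50 (log2), beside -2.03 for Mki67. For Blm the therapy effect was -1.31 with both tumors and 0.60 with the intracranial tumor only, and for Rad50 it was -0.26 and 0.29.

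Of the partners, Brip1 was at -1.70, Bard1 at -1.50 and Top3a at -0.67. Of the other recombination and BLM genes, Rpa2 was at -1.50, Rpa1 at -0.90, Recql4 at -1.93 and Recql at -0.89. In the signalling and checkpoint lists Chek1 was at -2.07, Wee1 at -1.61, Mdc1 at -1.37, Atr at -1.14 and Rnf168 at -0.69. Brcc3, of the BRCA1-A list, was at -0.76. Of the end-joining and 53BP1 lists, Parp1 was at -1.24, Rif1 at -1.18, Lig3 at -1.10, Xrcc5 at -0.68 and Paxip1 at -0.52. The Fanconi genes were at -1.89 for Fanca, -1.77 for Fancd2 and -1.32 for Fancm. These effects share the 4 groups and the libraries, so they are not independent of each other. The member calls were lost in 8 of the 12 fits that left out 1 library, and that of Mki67 in all but 3 (without replicate 2 of the both-tumor IgG mice it was -1.82, adjusted p = 0.0553). With the neuron or the mitosis score as a covariate no gene passed this test.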

How the results depend on the processing

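In both-tumor mice, therapy against IgG, the 3 member calls and the 23 calls of other repair genes became 0 and 0 with RLE scaling, with no filter, in the compared groups alone, with the neuron, the mitosis or (chosen after seeing the data) the melanocyte score as a covariate, and the 23 became 44 with DESeq2 and 36 with log2(FPKM + 1). When 1 library was left out, the counts ran from 0 to 4 and from 0 to 42, at 0 for 9 of 12 libraries; calls were made without therapy replicate 1 or IgG replicate 3 with both tumors, or without IgG replicate 2 with the intracranial tumor only. In intracranial-only mice, the compared groups alone gave 2 higher calls of other repair genes where the fit of all groups gave 0, and each library left out gave 0 to 0. Between both-tumor and intracranial-only mice under therapy, the 7 and 55 calls became 0 and 0 with the neuron or the mitosis score and ran from 6 to 8 and from 44 to 61 with a library left out. Under IgG they were 0 to 0. The 5 and 34 interaction calls became 0 and 0 with either score and ran from 0 to 6 and from 0 to 43, at 0 for 8 of 12 libraries; calls were made without therapy replicate 1, IgG replicate 2 or IgG replicate 3 with both tumors, or without IgG replicate 1 with the intracranial tumor only. Over all genes, therapy against IgG with both tumors gave 198 higher and 660 lower calls, against 1357 higher calls of 3103 with DESeq2. In this comparison, each setting or left-out library that gave 0 and 0 also called 0 of all genes. The same held for the neuron and the mitosis score in the contrast under therapy and in the interaction. It also held for the 8 libraries whose removal left the interaction at 0.

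Of 872 member fold changes under an alternative, 729 kept their direction and side of the threshold, 113 lost the threshold, 6 gained it and 24 changed sign. None of these 24 concerned a value that passed, except Nbn under therapy. With the mitosis score Nbn was at 0.10, 0.04 and 0.05 (therapy with both tumors, both tumors under therapy, interaction) and Brca1 at 0.11 (therapy, intracranial tumor only). With the neuron score, therapy in the intracranial tumor only gave Nbn -0.17, Brca1 0.73, Brca2 -0.03 and Blm 0.00, both tumors under IgG gave Mre11a -0.03 and Blm -0.13, and the Brca1 interaction was -0.29. Under IgG, Nbn was at 0.01 without the filter and 0.00 with DESeq2. With a library left out, Brca1 under therapy in the intracranial tumor only ran from -0.56 to 0.24, and under IgG Mre11a ran from -0.03 to 0.11, Nbn from -0.18 to 0.14 and Blm from -0.22 to 0.21. The median of all genes was at most 0.13 under RLE, DESeq2 and voom scaling (the interaction in DESeq2, against 0.04). The causes were not tested. Palb2, at 71 to 197 reads a library, is the member that depth limits most. No paired analysis was made, because the labels give no pairing between libraries.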
